A study of Rattus norvegicus with 34 samples.

Results

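The cathepsins are proteases of the lysosome, and 8 genes of the family (Ctsb, Ctsc, Ctsd, Ctsh, Ctsk, Ctsl, Ctss and Ctsz) were followed across rat testis arrays. They were chosen by gene symbol: every probe set whose single platform symbol was one of these names was taken, which gave 10 probe sets, 2 each for Ctsc and Ctsl and 1 for each other gene. The arrays measured 14217 named genes with 31042 probe sets in all. None of the 10 cathepsin probe sets passed the test in any comparison of exposed with control rats, of compounds at their shared dose or of dose levels. In P2500 testes, however, 4 of the 10 were higher than in Control at an unadjusted p under 0.05, a level that 4.15% of all probe sets reached. These were both sets of Ctsc, Ctsh and Ctsz. Leaving out the 3 P2500 arrays that also carried liver transcripts left 2 arrays in the group, replicates 01 and 05. The Ctsc differences were then 0.0186 and 0.000814 and the Ctsz difference 0.00705. The Ctsh difference was 0.0991 ± 0.104 (SE), where it had been 0.161 over all P2500 arrays.

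RNA came from whole testis of single adult male Wistar Han rats at postnatal day 92, hybridised to Affymetrix rat genome arrays, 1 array per animal. Exposure to 1 of 3 triazole fungicides was through the feed, and began at gestation day 6. The groups were myclobutanil at 500 ppm (M500, 3 arrays) and 2000 ppm (M2000, 5), propiconazole at 500 ppm (P500, 4) and 2500 ppm (P2500, 5), triadimefon at 500 ppm (T500, 4) and 1800 ppm (T1800, 4), and undosed rats at 0 ppm (Control, 6). Litters are not given in the labels, and littermates are not independent, so p-values measure only the spread between these animals.

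All values are quantile-normalized scores, a log-like unit of unknown base whose median was 0.0132 on every array, so differences are in score units and are not folds. A score also carries each probe set's own binding strength, so levels were not compared between genes. Late spermatid markers stood far above that median, with a list mean of 3.38 to 3.72 over all arrays, and the Sertoli list (1.06 to 1.21) and the Leydig list (0.713 to 1.03) were also above it. Of these genes only Amh, a Sertoli hormone that is low in adults, was below the median on every array. The actin gap, by which the 3' control probe set for beta-actin outscored the 5' one on an array, was above 1.4 on 5 arrays (M500 replicate 04, M2000 and P2500 replicates 05, and replicates 02 and 06 of Control). A larger gap means that the RNA or its copy held less of the 5' end. P2500 replicates 02, 03 and 04 stood apart by liver transcripts, with albumin (Alb) at 4.15, 3.89 and 3.91, against 0.132 to 1.65 in Control arrays. In whole tissue, fewer cells of a type and less RNA per cell cannot be told apart.

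Cathepsins are made as inactive proenzymes, carried to the lysosome largely by mannose 6-phosphate receptors, and activated there by acid and by other proteases. In the testis, Sertoli cells engulf the cytoplasm that maturing sperm shed and the remains of dying germ cells, and digest both in lysosomes. Rat Sertoli cells also secrete the proenzyme of cathepsin L in a cycle that follows the stages of spermatogenesis. Macrophages of the interstitium are a further rich source of lysosomal proteases, and use cathepsin S to prepare MHC class II molecules for antigen.

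Promoter windows are shown for Ctsd, Ctsl and Ctss. Ctsd went down and the other 2 went up with the actin gap, as described further on. A probe set of Ctsc also went up with the gap, but the Ctsc window is not printed. The gap describes the RNA or its copy on an array, and whether promoter motifs bear on these slopes was not tested. The windows are RefSeq's, on GRCr8, and run from 250 bases before to 50 bases after the gene's start. Such a window was available for 7 of the 8 genes, all but Ctsb, whose slope on the gap was the largest of the members (0.43). Ctsd lies on the minus strand at chr1:206968772-206969071, Ctsl on the plus strand at chr17:769854-770153 and Ctss on the plus strand at chr2:185775146-185775445. Capitals mark 3 motifs searched on both strands: CACGTG, the core of the element read by the lysosomal regulator TFEB, GGGCGG, the GC box read by Sp1, and GAAA repeated after any 2 bases, the core of interferon response elements.
Ctsd: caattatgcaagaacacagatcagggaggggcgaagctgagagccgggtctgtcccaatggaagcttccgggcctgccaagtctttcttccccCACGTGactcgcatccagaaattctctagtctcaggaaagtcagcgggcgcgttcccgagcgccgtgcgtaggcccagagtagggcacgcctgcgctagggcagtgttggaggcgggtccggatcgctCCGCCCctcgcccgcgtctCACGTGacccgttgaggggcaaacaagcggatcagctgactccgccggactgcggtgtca
Ctsl: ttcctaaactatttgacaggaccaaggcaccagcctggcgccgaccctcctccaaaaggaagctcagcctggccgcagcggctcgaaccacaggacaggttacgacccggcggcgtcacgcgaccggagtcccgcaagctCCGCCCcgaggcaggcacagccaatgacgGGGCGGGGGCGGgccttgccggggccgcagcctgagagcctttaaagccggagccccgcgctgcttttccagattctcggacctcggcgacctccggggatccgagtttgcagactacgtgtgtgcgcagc
Ctss: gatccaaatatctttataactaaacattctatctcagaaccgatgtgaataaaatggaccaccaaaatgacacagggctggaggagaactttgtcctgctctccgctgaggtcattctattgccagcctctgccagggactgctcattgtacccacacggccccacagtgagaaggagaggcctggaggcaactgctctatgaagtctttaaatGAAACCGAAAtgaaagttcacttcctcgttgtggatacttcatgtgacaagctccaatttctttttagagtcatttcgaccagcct

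The Ctsd window held CACGTG at 2 places, starting at -157 and -10 from the gene's start, and 1 GC box at -29. CACGTG was present in 6.42% of all 33469 promoter windows of the same length. The Ctsl window held 3 GC boxes, at -110, -81 and -75, the last 2 directly joined, and GGGCGG was present in 33.1% of all windows. The Ctss window held the interferon motif at -36, which 3.92% of windows shared. Of the other windows, those of Ctsc and Ctsh held 1 GC box each, that of Ctsz held 3 and that of Ctsk none of the motifs. Ctsk lies beside Ctss on chromosome 2, its window being chr2:185747298-185747597. These matches describe letters and not binding.

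Ctsl, the cysteine protease that Sertoli cells secrete as a proenzyme, was above the array median on all 31 arrays with both probe sets. With 1370244_at it scored 2.05, 2.02, 2.02 and 2.06 in T1800, 2.15, 2.15, 2.14 and 2.11 in T500, and 2 to 2.18 (median 2.06) in Control. T1800 and T500 arrays did not overlap, but both lay within the range of the Control arrays, and the difference of T1800 from T500 was -0.0987 (95% interval -0.22 to 0.0224). The share of all probe sets without overlap between these groups was not counted. T1800 had the smallest spread of any group on this probe set (SD 0.0172), and 1 M2000 array held the highest score of the series, 2.38. The second probe set, 1370245_at, ran from 0.612 to 0.896 and showed no difference from Control at an unadjusted p under 0.05 in any group.

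Ctsb, which cuts proteins inside the chain and also trims them from the carboxyl end, scored 1.66, 1.85, 1.75, 1.78 and 1.82 in P2500, against 1.54 to 2.31 (median 1.59) in Control. The top Control value belonged to replicate 02, an array of large actin gap, and it was the highest Ctsb score of all 31 arrays. P2500 replicates 02 to 05 stood above the other 5 Control arrays, whose highest was 1.68, and P2500 replicate 01 was just below that value at 1.66. Ctsb averaged 1.77 ± 0.073 in P2500 and 1.71 ± 0.298 in Control (SD, n = 5 and 6). The difference was 0.0575 ± 0.0966 (SE). Without the 5 arrays of gap above 1.4 it was 0.187 (adjusted p = 0.0692 in limma), and without the 3 liver-carrying arrays 0.0268. Ctsb ran from 1.53 to 1.92 in the other exposed groups, which all overlapped Control.

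Ctss, the cathepsin that clears the invariant chain from MHC class II in antigen-presenting cells, scored 0.406, 0.514, 0.446, 0.484 and 0.389 in P2500 and 0.433, 0.428, 0.473 and 0.418 in T1800. Control arrays ran from 0.281 to 0.602 (median 0.315). Every P2500 and T1800 array was above 5 of the 6 Control arrays, and below Control replicate 02 at 0.602, again the array of large gap. The differences with Control were 0.0908 ± 0.0498 for P2500 and 0.0807 ± 0.0531 for T1800 (SE), with unadjusted p-values of 0.0798 and 0.14 in limma. Without the 5 arrays of gap above 1.4 they were 0.158 (adjusted p = 0.0569) and 0.133 (adjusted p = 0.471). Without the 3 liver-carrying arrays the P2500 difference was 0.0403. Ctss was lowest in an M2000 array, at 0.198, and M2000 averaged 0.31 ± 0.0669 (SD, n = 5).

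Ctsk, known best as the collagen-cutting protease of osteoclasts, was the only member with an unadjusted p under 0.05 against Control on the lower side. It scored 1.39, 1.33 and 1.25 in M500, against 1.31 to 1.5 (median 1.45) in Control. All 3 M500 arrays were below the Control mean, 1 of them below every Control array. The difference was -0.107 ± 0.0411 (SE), with an unadjusted p of 0.0147 and an adjusted p of 0.396 in limma, so it did not pass. On the scores as deposited, without quantile normalization, the same difference was 0.0276. Those scores keep differences in scale between arrays: M500 replicate 04 was at 1.68 there (1.25 normalized) and Control replicate 02 at 1.96 (1.46 normalized). Without M500 replicate 04 the normalized difference was -0.0704. At the higher myclobutanil dose Ctsk averaged 1.43 ± 0.0513 in M2000, beside 1.43 ± 0.0679 in Control (SD, n = 5 and 6).

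Ctsh, which removes single residues from the amino end, scored 1.69, 1.6, 1.74 and 1.31 in T1800, against 1.26 to 1.52 (median 1.38) in Control. Replicates 02, 03 and 04 of T1800 were above every Control array, whereas replicate 05 was below the Control mean. The difference was 0.212 ± 0.0784 (SE; 95% interval 0.0506 to 0.373), with an unadjusted p of 0.0119 and an adjusted p of 0.767 in limma. In P2500 it scored 1.49, 1.59, 1.57, 1.57 and 1.46, all 5 above the Control mean, and the difference was 0.161 ± 0.0736 (SE). The P2500 difference was 0.0991 without the 3 liver-carrying arrays and 0.0584 on the scores as deposited, on which the T1800 difference was 0.137. At 500 ppm the means were 1.49 ± 0.076 in M500, 1.43 ± 0.138 in P500 and 1.41 ± 0.12 in T500 (SD).

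Ctsc, dipeptidyl peptidase I, which activates the serine proteases of granules in immune cells, was a faint signal. Its probe sets lay below the array median on 27 and 28 of the 31 arrays and below the hybridisation control of lowest concentration on all of them. Ctsd, Ctss and Ctsz were also below that control on every array, and Ctsl 1370245_at was above it on 1. Of these, Ctsd, Ctss and Ctsl were nevertheless above the array median on all 31 arrays. With 1368280_at it scored -0.085, 0.102, 0.0123, 0.0484 and -0.0776 in P2500 replicates 01 to 05, against -0.162 to -0.00684 (median -0.104) in Control. With 1374778_at it scored -0.239, 0.223, 0.0529, 0.0174 and -0.0476 in the same arrays, against -0.231 to -0.00619 (median -0.14) in Control. On both probe sets P2500 replicates 02, 03 and 04 were the 3 highest arrays of the group, and replicate 01 was the lowest.

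The differences of P2500 from Control were 0.09996 ± 0.0301 for 1368280_at and 0.145 ± 0.05 for 1374778_at (SE), with adjusted p-values of 0.284 and 0.537 in limma. The 3 high arrays are those that carried liver transcripts. Without them the differences were 0.0186 and 0.000814. The mean of the liver list of 16 genes ran from -0.129 to 1.49 in P2500, against -0.107 to 0.224 in Control. Every liver gene but Tat was above the array median on at least 1 array, and 15 of the 16 were higher in P2500 at an unadjusted p under 0.05. The part of liver RNA in the Ctsc result was not tested further. Without P2500 replicate 01, 1374778_at passed the test against Control (0.205, adjusted p = 0.00788), as did 268 of all probe sets (0.863%), where 0 passed with that array included. Without replicate 02 its difference was 0.09. In T1800, where Alb ran from 0.00419 to 0.714, Ctsc scored 0.0143, -0.0246, 0.0176 and -0.05 with 1368280_at. These 4 arrays were all above the Control mean, and their difference from Control was 0.0892 ± 0.0321 (SE; adjusted p = 0.767), while 1374778_at averaged -0.13 ± 0.0327 in T1800 and -0.144 ± 0.0821 in Control (SD, n = 4 and 6).

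**Figure D1:**
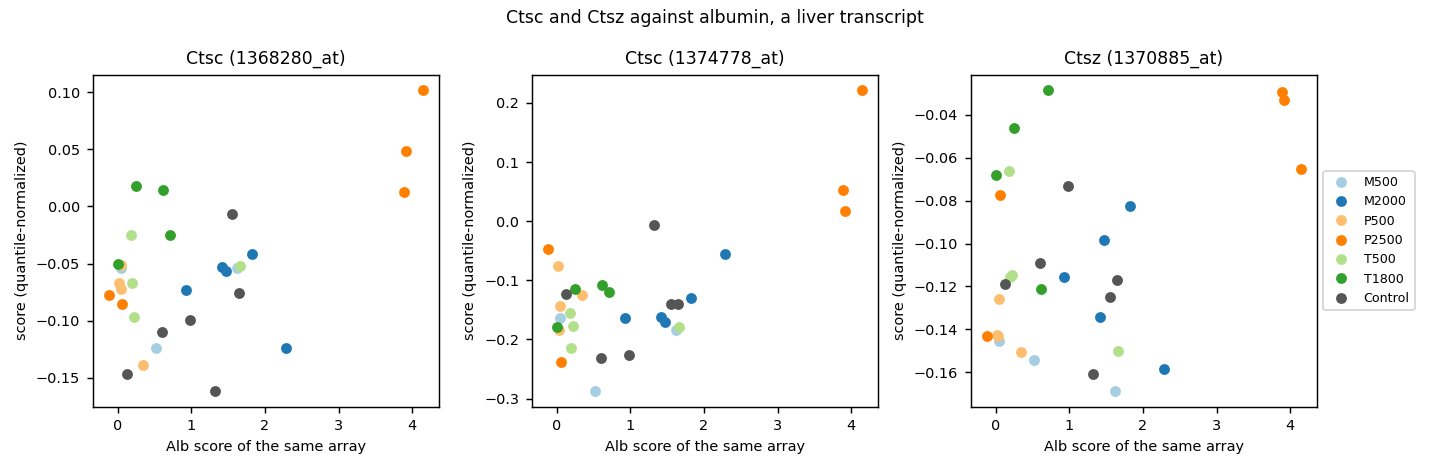
Scores of Ctsc (both probe sets) and Ctsz (vertical) against the Alb score of the same array (horizontal), 1 point per array, coloured by group. The 3 P2500 arrays with Alb at 3.89 to 4.15 lie apart on the right and hold high Ctsc scores of up to 0.102 and 0.223.

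Ctsz, a carboxypeptidase also called cathepsin X, was below the array median on all 31 arrays, so its values are a faint signal as well. It scored -0.0772, -0.0653, -0.0294, -0.0329 and -0.143 in P2500 and -0.121, -0.0283, -0.046 and -0.0682 in T1800. Control arrays ran from -0.161 to -0.0731 (median -0.118). In P2500 and in T1800 all arrays but 1 were above the Control mean. The differences were 0.0477 ± 0.0209 for P2500 and 0.0514 ± 0.0222 for T1800 (SE), with unadjusted p-values of 0.0304 and 0.0287. Without the 3 P2500 arrays that carried liver transcripts, the P2500 difference was 0.00705.

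Ctsd, the aspartic protease of the lysosome and the only member here that is not a cysteine protease, scored 0.578, 0.57 and 0.417 in M500, against 0.648, 0.695, 0.667 and 0.626 in T500 and 0.419 to 0.726 (median 0.612) in Control. M500 lay wholly below T500, while both overlapped Control. For this pair, too, the share of all probe sets without overlap was not counted. The difference of M500 from T500 was -0.138 (95% interval -0.278 to 0.00219). No Ctsd difference with Control reached an unadjusted p under 0.05 in the main fit. With the actin gap as a covariate, the differences from Control were -0.0818 in M500 (adjusted p = 0.226 in limma) and -0.023 in T500, both below 0. The 3 lowest scores of the series, 0.376, 0.417 and 0.419, came from P2500 replicate 05, M500 replicate 04 and Control replicate 06, all arrays of gap above 1.4.

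**Figure D2:**
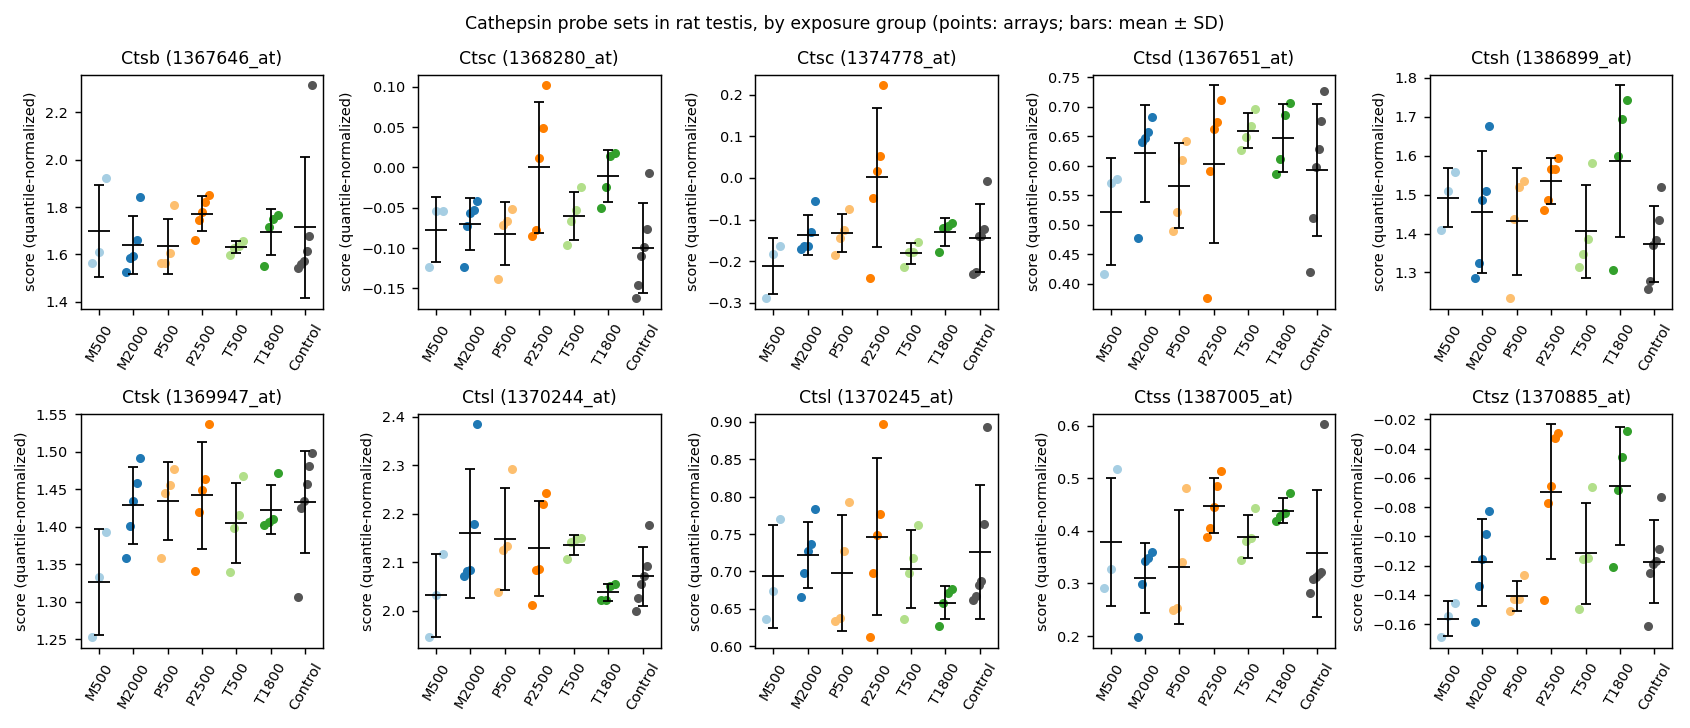
Quantile-normalized score (vertical) of each cathepsin probe set in the 6 exposed groups and Control (horizontal), with 1 point per array and bars for mean ± SD. The groups overlap Control for every probe set, and the highest Ctsb point, at 2.31, is a Control array.

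The question behind the design was which testis genes differ after dietary exposure to each triazole, and the 6 comparisons with Control share the same Control arrays. At an adjusted p under 0.05 in limma, 0 of the 10 cathepsin probe sets passed in any of the 6. The smallest adjusted p among them was 0.284 (Ctsc in P2500). Among all probe sets tested the share passing was 0% in M500, M2000, P500, P2500 and T500, and 0.00644% in T1800. At an unadjusted p under 0.05 the counts of cathepsin probe sets were 4 of 10 in P2500, all higher, 3 of 10 in T1800, all higher (Ctsc 1368280_at, Ctsh and Ctsz), and 1 of 10 in M500, lower (Ctsk). The share of all probe sets at that level was 4.15% in P2500, 5.84% in T1800 and 9% in M500. No cathepsin probe set reached it in M2000, P500 or T500, where 1.7%, 3.36% and 7.62% of all probe sets did.

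In P2500, all 10 cathepsin differences were above 0, with a median of 0.0578, but on the scores as deposited only 5 of them were. Over all probe sets 45% were above 0 in P2500, with a median of -0.00358. Without the 3 liver-carrying arrays 9 of the 10 were above 0. With 2 P2500 arrays left the standard errors were larger (0.104 in place of 0.0736 for Ctsh), and 0 of the 10 cathepsins and 3.82% of all probe sets had an unadjusted p under 0.05. Of these 2 arrays, replicate 05 had an actin gap of 1.47, so this fit changes the share of large-gap arrays in P2500 as well. In T1800, 6 of 10 were above 0, with a median of 0.0328, and over all probe sets 47.1% were, with a median of -0.00289. On the deposited scores the unadjusted counts were 3 of 10 in P2500 (2.92% of all probe sets) and 1 of 10 in T1800 (3.81% of all), all higher. Without the arrays of gap above 1.4 they were 6 of 10 in P2500 (8.89% of all) and 3 of 10 in T1800 (6.06% of all), all higher. With the gap as a covariate they were 5 of 10 in P2500 (8.26% of all) and 3 of 10 in T1800 (6.2% of all), again all higher. M500 had 2 of 10 lower in each of these 2 settings (9.54% and 16.6% of all). In M500 the cathepsin median was -0.0358, with 3 of 10 above 0 and 7 of 10 on the deposited scores. In M2000, P500 and T500 the median lay between -0.0115 and 0.0187. With limma's array weights in place of equal weights, 4 probe sets passed in P2500 (Ctsb, both of Ctsc, and Ctss) and 1 in T1800 (Ctss, 0.134, adjusted p = 0.0175). The same weights raised the count over all probe sets to 882 in P2500 (2.84%) and 264 in T1800 (0.85%).

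**Figure D3:**
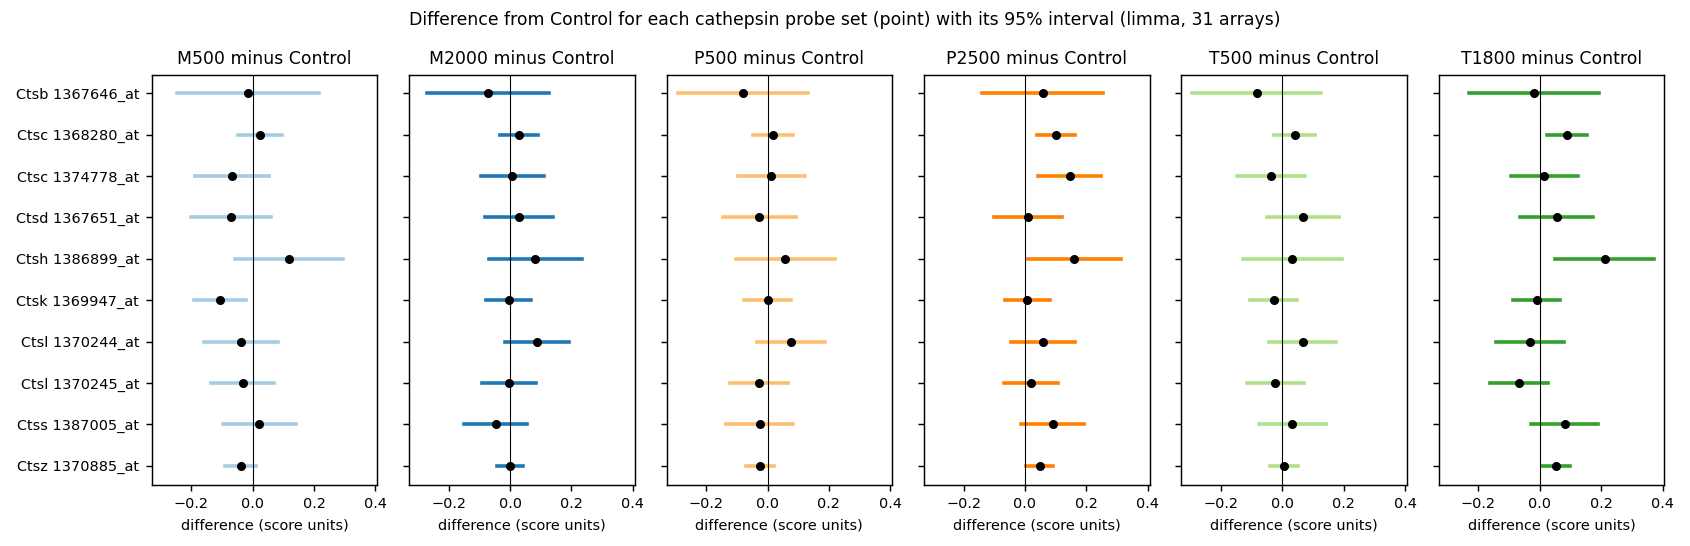
Difference from Control in score units (horizontal) for each cathepsin probe set (vertical), 1 panel per exposed group, with 95% intervals from limma over 31 arrays. In P2500 all 10 points are right of 0 (5 on the scores as deposited), and the intervals of both Ctsc probe sets, Ctsh and Ctsz exclude 0.

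The 3 compounds share a triazole ring. The rest of the molecule sets them apart: there is a ketone in triadimefon, a nitrile in myclobutanil and a dioxolane ring in propiconazole. At 500 ppm, the dose given of all 3, 3 pairs were compared and no cathepsin probe set passed, with p-values adjusted either over the probe sets of a pair or over the 3 pairs together. Among all probe sets 0% passed in each pair. Ctsk was lower in M500 than in P500 by an unadjusted test only, at a difference of -0.108 (95% interval -0.199 to -0.0164) and an adjusted p over the 3 pairs of 0.741 in limma. On the scores as deposited that difference was 0.1002. It was 1 of 10 cathepsin probe sets at an unadjusted p under 0.05 for M500 against P500, where 7.48% of all probe sets were. None of the 10 reached that level for M500 against T500 (6.69% of all) or for P500 against T500 (5.08% of all). The intervals leave room for differences: for Ctsb they ran from -0.188 to 0.313 for M500 minus P500, from -0.182 to 0.318 for M500 minus T500 and from -0.226 to 0.237 for P500 minus T500. For Ctsz they were narrower, from -0.0697 to 0.0384, from -0.0986 to 0.0094 and from -0.079 to 0.0211 in the same order. Its signal was faint, below the array median on all 31 arrays, so their width does not tell how well the transcript was measured. The high doses differed between compounds (2000, 2500 and 1800 ppm), so those groups were not compared with each other.

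Between dose levels of 1 compound, again no cathepsin probe set passed, and the share of all probe sets that passed was 0% for myclobutanil, 0% for propiconazole and 0.00322% for triadimefon. In P2500 against P500, 4 of 10 were higher at an unadjusted p under 0.05, beside 3.83% of all probe sets. These were both Ctsc sets, Ctss (0.117) and Ctsz. Ctsz had the smallest adjusted p, 0.497. It averaged -0.0696 ± 0.046 in P2500 and -0.141 ± 0.0104 in P500 (SD, n = 5 and 4), a difference of 0.071. Without the 5 arrays of gap above 1.4, which include 1 P2500 array, this Ctsz difference was 0.0894 and passed (adjusted p = 0.0254), as did 1.37% of all probe sets. Without the arrays that carried liver transcripts it was 0.0304. In M2000 against M500, 2 of 10 were higher unadjusted (Ctsk by 0.102 and Ctsl 1370244_at by 0.128), beside 7.55% of all probe sets. Both turned on the scores as deposited, to -0.157 and -0.38. In T1800 against T500, 1 of 10 was (Ctsh by 0.179), beside 1.97% of all.

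The actin gap of the array moved with more cathepsins than any exposure did. In the limma model with a mean per group and the gap as a covariate, 5 of the 10 probe sets went up with the gap at an adjusted p under 0.05, beside 28.5% of all probe sets. Ctsd alone went down, beside 28.6% of all. The share of cathepsins that changed with the gap was therefore near the background share. Per unit of gap, the slope was 0.43 ± 0.0743 for Ctsb (SE; adjusted p = 1.76e-05), 0.171 ± 0.0471 for Ctss (adjusted p = 0.00299) and 0.198 ± 0.032 for Ctsl 1370245_at (adjusted p = 7.03e-06). Smaller positive slopes passed for Ctsl 1370244_at (0.134) and Ctsc 1374778_at (0.142). For Ctsd the slope was -0.271 ± 0.0341 (adjusted p = 1.4e-07).

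The 5 arrays of gap above 1.4 scored 0.376 to 0.51 for Ctsd, against 0.489 to 0.726 in the other 26. For Ctsb they scored 1.68 to 2.31, against 1.53 to 1.85. The slopes of Ctsh, Ctsk, Ctsz and Ctsc 1368280_at did not pass. By group, the gap averaged 0.79 ± 0.0748 in T500, 0.852 ± 0.0529 in T1800 and 1.02 ± 0.287 in P2500, against 1.12 ± 0.408 in Control (SD). The triadimefon groups and P500 held no array of gap above 1.4, while 2 of the 6 Control arrays lay above it. With the gap as a covariate the T1800 differences were 0.244 for Ctsh (adjusted p = 0.49) and 0.127 for Ctss (adjusted p = 0.604).

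**Figure D4:**
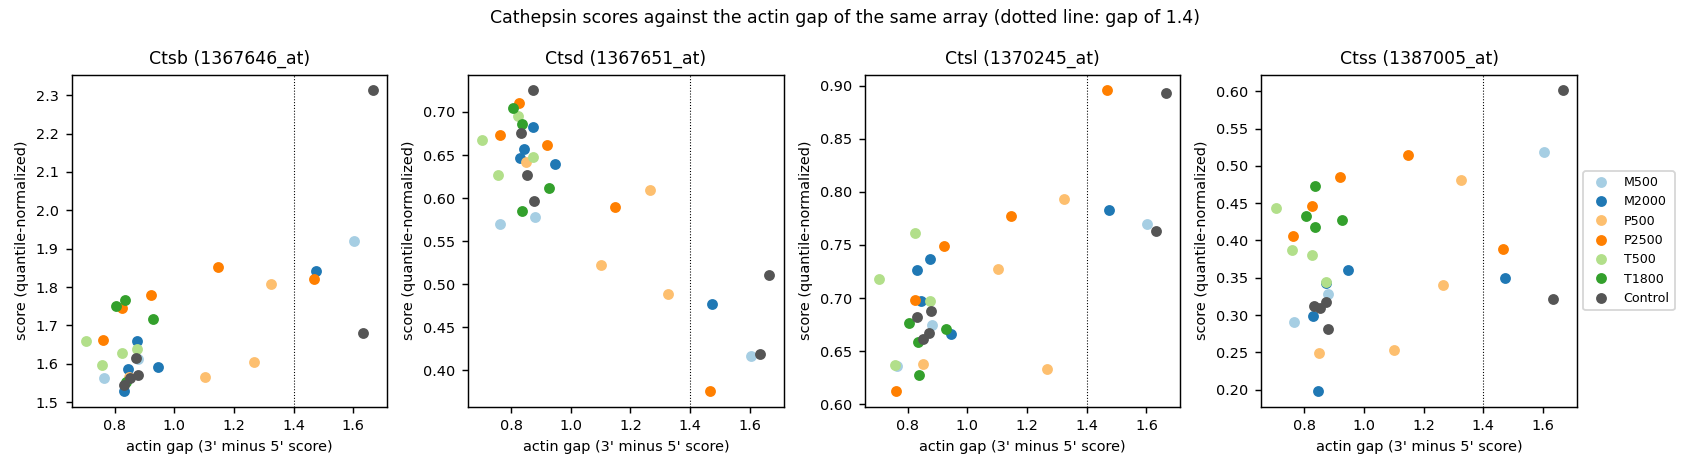
Score (vertical) of cathepsin probe sets against the actin gap of the same array (horizontal, 3' minus 5' score), 1 point per array, coloured by group, with a dotted line at a gap of 1.4. The 5 arrays right of the line score 1.68 to 2.31 for Ctsb and 0.376 to 0.51 for Ctsd.

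T1800 and Control were also the only groups with animals of the later number series, read from the animal numbers in the labels (3 arrays each). Within that series the T1800 differences from Control were 0.206 for Ctsh, 0.136 for Ctss, 0.104 for Ctsc 1368280_at and 0.0668 for Ctsz, none of which passed (adjusted p = 0.817 for each). They ran the same way as over all animals, but these arrays are part of that comparison as well, so this is not a separate test. Of the 10 cathepsin differences 1 changed sign, that of Ctsb, from -0.018 over all animals to 0.0745.

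Likeness between genes was measured by Pearson's r of scores centred on each group's mean, over 31 arrays and 14216 other genes. It is a description, since arrays share RNA quality and the arrays of large gap weigh on it. The genes most like Ctsb were Zmynd10 (r = 0.949), Vim, an intermediate filament protein of Sertoli and interstitial cells (0.947), and Kyat1 (0.928). Ctsd was most like Yipf3 (0.938), Msto1 (0.918) and the glutathione transferase Gstm2 (0.918). Ctsl was most like the chaperonin subunit Cct2 (0.846), Ik (0.831) and Art3 (0.802), and Ctsh most like Gsta1 (0.877), Cd81 (0.847) and Pnp (0.814). For Ctss they were Zmynd10 (0.865), Ctsb itself (0.846) and Aldh16a1 (0.834).

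For Ctsc the most alike genes were Gpr83 (0.834), Ramp3 (0.762) and Slc17a3 (0.759), and for Ctsz Tmem150a (0.768), Myo1c (0.707) and the macrophage lysozyme Lyz2 (0.705). Ctsk was most like Slc25a3 (0.763), Akr1b1 (0.72) and Fkbp4 (0.693). Among the members, Ctsb and Ctss varied together most closely (r = 0.846, and 0.754 over the 26 arrays of smaller gap). Ctsb and Ctsl 1370245_at followed (0.765, and 0.689). The pair of Ctsl probe sets gave 0.607 (0.628 over the 26 arrays) and the pair of Ctsc probe sets 0.429 (0.709). Ctsd ran against Ctsl 1370245_at (-0.698, and -0.468 over the 26 arrays).

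**Figure D5:**
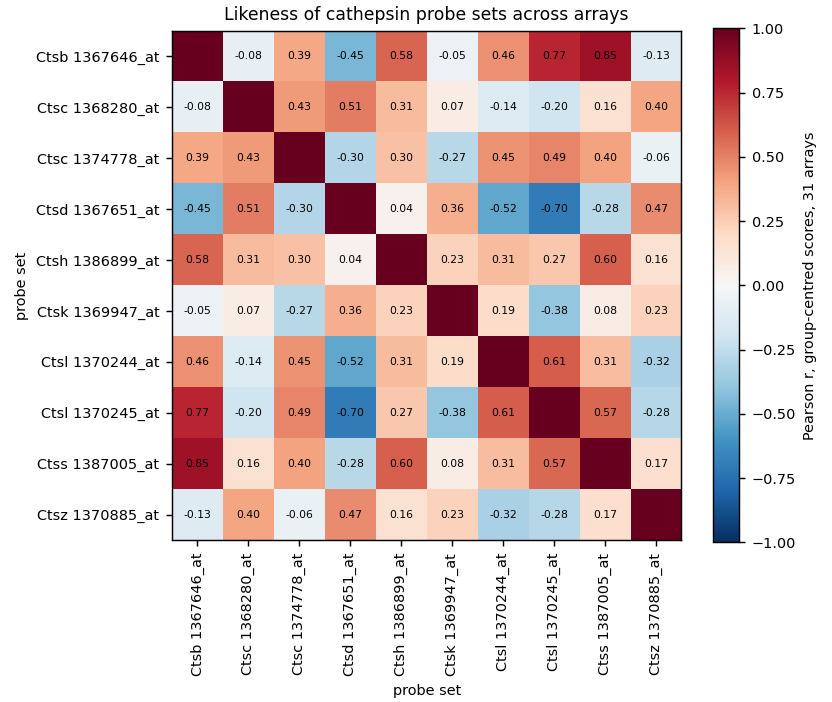
Pearson's r of group-centred scores over 31 arrays for each pair of cathepsin probe sets (rows and columns). Ctsb with Ctss is the highest pair at 0.846, and Ctsd with Ctsl 1370245_at is negative at -0.698.

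Other genes of the pathway were taken from lists chosen with earlier results of these data known, and no gene of any list passed against Control at an adjusted p under 0.05 in limma. Of 18 further cathepsins and relatives, 13 were measured and 10 of these were below the array median on every array. The lysosomal exopeptidase Tpp1, counted with them, averaged 0.573 ± 0.0596 in T500 and 0.667 ± 0.0816 in Control (SD, n = 4 and 6; adjusted p = 0.606). Of 34 measured lysosomal enzymes and membrane proteins, 2 were higher and 0 lower in T1800 at an unadjusted p under 0.05, and 2 higher and 1 lower in P2500. The share of all probe sets at that level was 5.84% in T1800 and 4.15% in P2500. Arsa, the sulfatase arylsulfatase A, averaged 1.56 ± 0.0287 in T500 and 1.68 ± 0.0356 in Control (adjusted p = 0.521). Tmem192, a lysosomal membrane protein, averaged 1.01 ± 0.0204 in T1800 and 0.873 ± 0.104 in Control (adjusted p = 0.672). Of the 27 sorting and acidification genes, 2 were higher and 1 lower in T1800, the last being Nagpa, which uncovers the mannose 6-phosphate tag (-0.13, adjusted p = 0.735), and none in P2500.

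Of the 12 measured protease inhibitors, 3 were higher in T1800 and 3 in T500 at an unadjusted p under 0.05, and none lower, beside 5.84% and 7.62% of all probe sets. The serpin Serpinb9 averaged 0.477 ± 0.073 in T1800 and 0.369 ± 0.0609 in Control (SD, n = 4 and 6; adjusted p = 0.68). Cst8, a cystatin of the reproductive tract, averaged 2.79 ± 0.163 in T500 and 2.47 ± 0.355 in Control (adjusted p = 0.596).

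Markers of cells that make cathepsins were read beside these values. Of 21 macrophage markers, 8 were higher in T1800 and 4 in P2500 at an unadjusted p under 0.05, and none lower in either, beside 5.84% and 4.15% of all probe sets. None passed after adjustment. The list mean ran from 0.289 to 0.345 in T1800, from 0.241 to 0.316 in P2500 and from 0.268 to 0.339 in T500, against 0.191 to 0.292 in Control. In T500 1 marker was higher and 1 lower at the unadjusted level. The complement gene C1qa averaged 0.244 ± 0.0332 in T1800 and 0.0789 ± 0.0503 in Control (SD, n = 4 and 6; adjusted p = 0.204). Fcgr2b, Tyrobp, Ptprc and Ms4a7 were below the array median on every array. Of 12 Sertoli markers, none was higher or lower in T1800, and the list mean ran from 1.14 to 1.16 there, against 1.06 to 1.21 in Control. The peritubular and matrix list ran from 0.679 to 0.767 in T1800, against 0.495 to 0.574 in Control, and 8 of its 14 genes were higher and none lower at that level. In T500 this list ran from 0.536 to 0.757, with 4 genes higher and 2 lower. Of 9 Leydig markers, 4 were higher in T1800 and 3 in P2500 at an unadjusted p under 0.05, and none lower. In T500, where no cathepsin probe set reached that level, 4 were higher too, as were 2 in M500 and 1 in P500, with none lower. The share of all probe sets at that level was 7.62% in T500, 9% in M500 and 3.36% in P500. The Leydig list mean averaged 0.957 ± 0.093 in T1800, 0.965 ± 0.0903 in P2500 and 0.944 ± 0.0641 in T500, against 0.796 ± 0.0856 in Control (SD, n = 4, 5, 4 and 6). Cyp17a1, a steroid enzyme of Leydig cells, was at 2.05 ± 0.346 in P2500 and 1.55 ± 0.187 in Control (adjusted p = 0.162). The part of macrophage, Leydig or matrix cell content in the Ctss, Ctsh, Ctsc and Ctsz values was not tested.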

How the data were processed

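Testis RNA of 34 rats is labelled in the series, and 31 arrays held values. Control replicate 01, M500 replicate 03 and T1800 replicate 01 were not analysed here. The deposited values are a score per probe set, centred by the authors near 0 (array medians -0.00914 to 0.0558). The sources used here do not state how the probes were summarised and normalized, so the log base is unknown. TRI Reagent extraction, DNase treatment and copying from an oligo-dT primer preceded hybridisation, per the labels' protocols.

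Of 31099 probe sets, 57 controls were left out. The platform annotation, which can be old, gave 20826 of the rest 1 symbol, 436 several and 9780 none. Arrays differed in the scale of their scores, so they were quantile normalized in R 4.3.3 with limma 3.58.1. The deposited scores, used as an alternative, keep that difference in scale. One limma model with a mean per group (lmFit, eBayes) gave 12 contrasts, adjusted by Benjamini-Hochberg over 31042 probe sets at a threshold of 0.05. The scripts were tested on simulated data. The slope on the actin gap was read from the fit with the gap as covariate and was added after the data were seen. The members, the gene lists and the tests were chosen with earlier results of these data known. The text names every member, up to 3 genes of smallest p per list, and the 3 genes most like each member. The number of arrays per group limits the precision.

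Alternatives tried were the deposited scores without quantile normalization, only the groups compared in the fit, array weights, the actin gap as covariate or its high arrays left out, the liver-carrying arrays left out, the animal number series, a replicate block, a filter on dim probe sets, the mean over a gene's probe sets, and each replicate left out.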

Additional observations from a re-analysis of the deposited data

Results flagged for a closer look

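Of 60 sets of values (a probe set in a group of 4 or more arrays), 5 held an array that stood apart from the rest of its group by Dixon's ratio, the gap to the nearest array over the whole range, and chance gives about 1 in 20. Ctsb stood apart in P500 replicate 04, at 1.81 with the nearest array at 1.60 (ratio 0.835, actin gap 1.33). Ctsb also did in Control replicate 02, at 2.31 with the nearest at 1.68 (ratio 0.825, actin gap 1.67). The same Control array was highest for Ctss, at 0.602 with the nearest at 0.322 (ratio 0.874). Ctsd was lowest in M2000 replicate 05, at 0.478 with the nearest at 0.639 (ratio 0.79, actin gap 1.47). Ctsk was highest in T1800 replicate 03, at 1.47 with the nearest at 1.41 (ratio 0.895, actin gap 0.928).

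In a pair of cases, groups lay wholly on opposite sides of the Control mean. How often this happens over all probe sets was not counted, and with groups this small some such cases can arise by chance. All T1800 arrays were below it and all T500 arrays above it for Ctsl 1370244_at, and the difference of T1800 from T500 was -0.0987. All M500 arrays were below it and all T500 arrays above it for Ctsd, and the difference of M500 from T500 was -0.138. Neither difference passed the test. With the actin gap as a covariate, Ctsd differed from Control by -0.0818 in M500 and by -0.023 in T500, so both were then lower.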

How the results depend on the processing

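The count of cathepsin probe sets past the threshold was 0 in all 12 comparisons, and 0 to 1 with single replicates left out, where 1 passed without P2500 replicate 01 (Ctsc 1374778_at, 0.205 against Control and 0.194 against P500). In those 2 comparisons 0.863% and 0.744% of all probe sets then passed. With array weights 4 passed in P2500 against Control, 1 in T1800 against Control and 4 in P2500 against P500 (both Ctsc sets, Ctss and Ctsz), where 2.84%, 0.85% and 2.75% of all probe sets did. Without arrays of gap above 1.4, 1 passed in P2500 against P500, with 1.37% of all probe sets. The other alternatives gave 0 in every comparison they could be run for. Over all probe sets, the count in P2500 was 0, and 882 with array weights, 308 without the arrays of large gap and 50 with the gap as covariate. A single array moved it too, to 268 without P2500 replicate 01 and 283 without P2500 replicate 05. In T1800 it was 2 and, with array weights, 264. Of the 60 cathepsin differences from Control, the sign turned in 16 with the deposited scores, 17 without the arrays of large gap, 15 with array weights, 12 each with the gap as covariate, with the animal number series as a block and without Control replicate 02, and 9 with the replicate block. Among the differences that had an unadjusted p under 0.05, 4 turned with the deposited scores: Ctsk in M500 against Control (0.0276), M500 against P500 (0.1002) and M2000 against M500 (-0.157), and Ctsl 1370244_at in M2000 against M500 (-0.38). Ctsc 1374778_at in P2500 against P500 turned without the liver-carrying arrays (-0.0109), as did Ctsd in P2500 against Control (-0.0681), which had not reached that level. The cause was not tested. Replicate numbers were not treated as pairs in the main fit. Group-centred scores of same-numbered arrays of exposed and Control groups correlated from -0.768 to 0.574 over 20 pairs, 9 of them over 0.1. Arrays of large gap weigh on these values, so they cannot settle whether the numbers pair the arrays. With the replicate block the count of cathepsins past the threshold was 0 in every comparison. Ctsc and Ctsz lay below the array median on most arrays, so their signal over background limits their precision.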
